A study of Mus musculus with 8 samples.

Results

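The genes described here encode auxiliary proteins of the AMPA receptor and comprise 6 transmembrane AMPA receptor regulatory proteins (TARPs; Cacng2, Cacng3, Cacng4, Cacng5, Cacng7 and Cacng8), 2 cornichons (Cnih2 and Cnih3) and Syndig1. They were chosen by gene name from the FPKM values of 13996 genes, and all 9 names were found. All 9 also passed the filter on low values, which kept genes that had a mean of 1 FPKM or more and were above 0 in every mouse.

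AMPA receptors are the glutamate-gated ion channels that carry most fast excitatory transmission in the cortex. Their pore is built from the subunits encoded by Gria1 to Gria4, and TARPs and cornichons bind the pore from the side. Many of them, though not all, help the receptor to leave the endoplasmic reticulum and reach the synapse, and slow its gating. Type I TARPs (Cacng2, Cacng3, Cacng4 and Cacng8) and type II TARPs (Cacng5 and Cacng7) differ in their C-terminal tails and in how they change the current, and SYNDIG1 is a transmembrane protein of the synapse that binds AMPA receptors.

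RNA was measured in the cortex of male C57BL/6 mice, 4 on a conventional diet (Normal) and 4 on a high fat diet with 60% fat by weight (HFD), with 1 library per mouse. Feeding lasted 8 weeks from the age of 8 weeks, so all mice were 16 weeks old when they were killed under ether. The libraries were depleted of ribosomal RNA, stranded and sequenced from both ends. The deposited FPKM values are per length and per depth and rounded to 0.1, so levels of different genes can be compared, but the read depth behind each value is unknown.

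Markers of cell types and of neighbouring brain regions differed between the mice, and they are given here as a description of the samples. Of 9 cortical excitatory neuron markers, 7 were higher in HFD mice, and their sum was 292.1 to 442.0 FPKM in Normal mice and 487.2 to 577.3 FPKM in HFD mice. All 9 striatal markers tested were lower in HFD mice, with sums of 440.1, 361.1, 343.8 and 238.8 FPKM in Normal mice 1 to 4 and 79.4 to 88.9 FPKM in HFD mice. Drd2, the dopamine receptor of striatal indirect pathway neurons, was at 4.2 to 9.3 FPKM in Normal mice and at 0.3 to 0.7 FPKM in HFD mice. The striatum lies directly beneath the cortex. The summed cerebellar granule cell markers were 23.0, 222.0, 308.6 and 74.2 FPKM in Normal mice 1 to 4 and 18.6 to 23.0 FPKM in HFD mice, and 3 of the 7 tested were lower in HFD mice. Gabra6, the GABA receptor subunit of granule cells, was at 1.7, 46.5, 61.7 and 12.2 FPKM in Normal mice 1 to 4, listed at 0 in HFD mouse 1 and at 0.1 to 0.2 FPKM in the other HFD mice. Cerebellar markers were thus highest in Normal mice 2 and 3. In Normal mouse 1 the sum was at the HFD level, and single markers were mixed. Cbln3 (1.6 against 0.2 to 0.6 FPKM), Fat2 (0.5 against 0.1 to 0.2 FPKM) and Zic1 (5.7 against 3.3 to 3.7 FPKM) were above every HFD mouse, as Gabra6 was. Cbln1 (5.0 against 5.8 to 9.7 FPKM) and Zic2 (2.3 against 2.5 to 3.8 FPKM) were below every HFD mouse. Neurod1 (5.4 against 5.2 to 6.5 FPKM) and Zic4 (0.8 against 0.7 to 0.8 FPKM) lay within the HFD range. Markers of Purkinje cells and Bergmann glia (2 of 4 lower, 14.5 to 117.2 FPKM in Normal mice and 12.4 to 12.8 FPKM in HFD mice) and of the thalamus (1 of 7 lower, 54.9 to 136.8 and 47.8 to 59.2 FPKM) were also highest in Normal mice 2 and 3. Lower in HFD mice were all 8 oligodendrocyte markers (2149 to 3539 and 1485 to 2048 FPKM), 2 of 4 hippocampal markers (18.1 to 21.0 and 8.8 to 16.1 FPKM) and 2 of 5 choroid plexus markers (342.7 to 725.5 and 21.0 to 940.6 FPKM). Interneuron markers were mixed, with 2 of 7 higher and 4 lower, and so were those of astrocytes (1 of 7 higher, 2 lower) and of oligodendrocyte precursors (1 of 5 higher, 2 lower). Their sums were 435.6 to 495.2 and 391.7 to 434.2 FPKM for interneurons, 692.0 to 716.6 and 685.2 to 727.8 FPKM for astrocytes and 43.7 to 47.5 and 36.0 to 40.3 FPKM for precursors. None of 6 microglial markers passed the test, with sums of 105.4 to 128.3 and 110.7 to 121.9 FPKM. In whole cortex, fewer cells of a type, less RNA per cell and different amounts of tissue from neighbouring regions cannot be told apart.

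Of the 9 auxiliary genes, 4 passed the test between diets (44.4%; limma, adjusted p below 0.05), against 33.1% of all 13982 genes tested. Cacng3 was higher in HFD mice, and Cacng4, Cacng5 and Syndig1 were lower. Across all genes, 17.7% passed in the higher direction and 15.3% in the lower. All 4 of these genes changed by more than 1.5-fold, as 7.13% of all genes did while passing the test (4.23% higher, 2.90% lower). The groups did not overlap for the same 4 genes, and for 31.9% of all genes (17.2% with HFD mice higher, 14.7% with HFD mice lower). The median log2 difference of the 9 genes was 0.16 and the median of all genes was 0.0031, and without regard to sign the medians were 0.24 and 0.17. The remaining 5 genes, Cacng2, Cacng7, Cacng8, Cnih2 and Cnih3, did not pass the test and had overlapping groups.

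**Figure D1:**
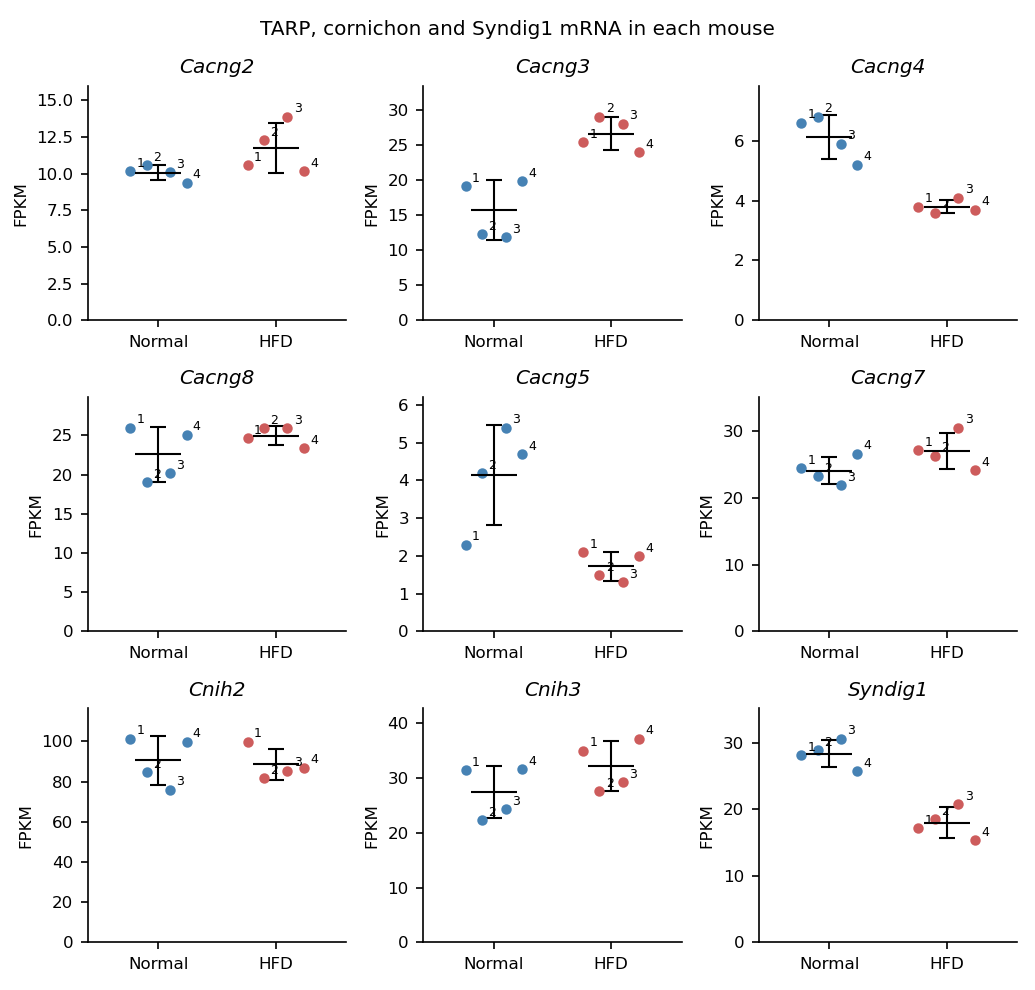
FPKM of each auxiliary gene (vertical axes, linear, from 0) in the 4 Normal and 4 HFD mice; points are mice with their replicate numbers, and bars are the mean and SD. The 4 HFD mice lie above all Normal mice for Cacng3 and below all Normal mice for Cacng4, Cacng5 and Syndig1, and the diets overlap in the other 5 genes.

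In Normal mice Cnih2 was the most abundant, at 90.5 ± 12.2 FPKM (SD, n = 4), above all the others. Syndig1, Cnih3, Cacng7, Cacng8 and Cacng3 followed in this order, and each neighbouring pair in it had overlapping ranges. Cacng2 lay below these and above Cacng4 and Cacng5, which overlapped. In HFD mice Cnih2 was again first, and Cnih3, Cacng7, Cacng3 and Cacng8 formed an overlapping series below it. Syndig1 was now below all of these, having been the 2nd of 9 in Normal mice and the 6th of 9 in HFD mice, and it was followed without overlap by Cacng2, Cacng4 and Cacng5. The coefficient of variation between mice of a diet ranged from 4.95% to 32.0% in Normal mice and from 4.78% to 22.4% in HFD mice.

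Cacng3 was the only type I TARP that passed the test with higher values in HFD mice. It encodes a close relative of stargazin that is found mainly in the forebrain, and it lies on chromosome 7 (GRCm38 chr7:122670492-122769393, plus strand; ENSMUSG00000066189.9). Its FPKM was 19.1, 12.3, 11.8 and 19.8 in Normal mice 1 to 4 and 25.4, 29.0, 28.0 and 23.9 in HFD mice 1 to 4. Every HFD mouse was above every Normal mouse, and Normal mice 2 and 3 lay well below Normal mice 1 and 4. The mean was 15.8 ± 4.29 FPKM in Normal mice and 26.6 ± 2.34 FPKM in HFD mice, a log2 difference of 0.79 (SE 0.17, 95% confidence interval 0.41 to 1.17, adjusted p = 0.00759) or 1.73-fold. Normal mice 2 and 3 were also the mice with the highest cerebellar and thalamic markers. Without them the log2 difference was 0.44 (adjusted p = 0.0114). With the mean log2 level of the cerebellar granule markers as a covariate (the cerebellar log2 covariate) it was 0.16 (adjusted p = 0.616). With the mean relative FPKM of these markers instead (the cerebellar linear covariate) it was 0.40 and passed the test (adjusted p = 0.0297). The log2 covariate correlated with diet over the 8 mice at r = -0.82 and the linear covariate at r = -0.64. A fit that holds diet and such a covariate separates them only in part. The log2 covariate was also higher in every Normal mouse (-0.65 to 2.95) than in every HFD mouse (-1.62 to -1.25). Cortical excitatory markers were likewise lowest in Normal mice 2 and 3, and their part in the result was not tested.

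Cacng4 moved the other way. It encodes a type I TARP known from early postnatal brain and from glial precursors, and it lies on the minus strand at GRCm38 chr11:107732357-107794557 (ENSMUSG00000020723.3). It was at 6.6, 6.8, 5.9 and 5.2 FPKM in Normal mice 1 to 4 and at 3.8, 3.6, 4.1 and 3.7 FPKM in HFD mice 1 to 4. All HFD mice were below all Normal mice, and the spread in HFD mice was small. The mean fell from 6.12 ± 0.727 to 3.80 ± 0.216 FPKM, a log2 difference of -0.67 (SE 0.09, 95% confidence interval -0.88 to -0.46, adjusted p = 0.0014), so that it was 1.59-fold lower. The difference was -0.61 without Normal mice 2 and 3 (adjusted p = 0.0121). With the cerebellar log2 covariate it was -0.69, of similar size but with a larger SE of 0.17, and did not pass the test (adjusted p = 0.0576). With the cerebellar linear covariate it was -0.65 and passed (adjusted p = 0.0113). Normal mouse 4, which had the lowest striatal marker sum of the Normal mice, also had the lowest Cacng4. With striatal markers (the mean over markers of their relative FPKM) as a covariate, limma called 0 of the 13982 genes (892 at an unadjusted p below 0.05) and the Cacng4 difference was -0.20 (adjusted p = 0.848). The part of oligodendrocyte precursor markers, of which 1 was higher and 2 were lower, was not tested.

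Stargazin itself, the product of Cacng2 and the first TARP to be described, was measured at 10.2, 10.6, 10.1 and 9.4 FPKM in Normal mice 1 to 4 and at 10.6, 12.3, 13.9 and 10.2 FPKM in HFD mice 1 to 4. The diets overlapped, with HFD mice 2 and 3 above the rest. The log2 difference was 0.21 with a 95% confidence interval from -0.0037 to 0.42 (adjusted p = 0.118). Cacng8, whose product is the TARP most known from the hippocampus, was at 26.0, 19.0, 20.2 and 25.1 FPKM in Normal mice and at 24.7, 25.9, 25.9 and 23.4 FPKM in HFD mice. Its low values were again those of Normal mice 2 and 3. Its log2 difference was 0.16 (95% confidence interval -0.07 to 0.38, adjusted p = 0.249), and it turned to -0.03 without these mice.

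Of the type II TARPs, Cacng5 was lower in HFD mice and Cacng7 did not pass the test. The 250 bases before the annotated start of both genes are printed because only 1 gene of this pair passed the test. For Cacng5 it is the more upstream of 2 annotated starts. Capitals mark matches to GGGCGG, the GC box, and to CCAAT on either strand, so that CCGCCC and ATTGG are the same motifs read on the other strand. The sequences are from RefSeq (GRCm38.p6), 5′ to 3′ on the strand of the gene, at chr11:107915056-107915305 (minus strand) for Cacng5 and chr7:3332575-3332824 (plus strand) for Cacng7, and neither overlaps an annotated exon.
Cacng5: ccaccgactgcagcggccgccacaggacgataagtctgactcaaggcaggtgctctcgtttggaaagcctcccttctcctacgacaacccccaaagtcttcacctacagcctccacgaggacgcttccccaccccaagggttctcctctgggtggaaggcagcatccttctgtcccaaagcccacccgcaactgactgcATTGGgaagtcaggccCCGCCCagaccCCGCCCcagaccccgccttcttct
Cacng7: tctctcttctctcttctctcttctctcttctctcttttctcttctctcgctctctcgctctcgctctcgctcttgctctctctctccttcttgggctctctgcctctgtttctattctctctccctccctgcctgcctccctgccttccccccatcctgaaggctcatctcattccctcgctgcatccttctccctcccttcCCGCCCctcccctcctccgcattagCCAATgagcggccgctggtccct
The Cacng5 window held 2 matches to the GC box and 1 to CCAAT, with 62.0% G or C and 12 CpG. The Cacng7 window held 1 match to each, with 58.0% G or C and 9 CpG. Both windows were above the median G or C content of 52.4% and the median of 6 CpG over 32851 such windows. At least 1 match to the GC box was found in 32.7% of those windows, and at least 1 to CCAAT in 33.8%. The window before the other Cacng5 start (chr11:107911363-107911612) had 56.8% G or C, 2 CpG and no match to either motif. RefSeq windows were found for 8 of the 9 genes.

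Cacng5, which lies at GRCm38 chr11:107874605-107915055 (minus strand; ENSMUSG00000040373.12), was the least abundant of the 9 genes. Its FPKM was 2.3, 4.2, 5.4 and 4.7 in Normal mice 1 to 4 and 2.1, 1.5, 1.3 and 2.0 in HFD mice 1 to 4. The diets did not overlap, but the lowest Normal value, in mouse 1, was close to the highest HFD value, and the rounding to 0.1 FPKM is coarse at this level. The mean fell from 4.15 ± 1.33 to 1.73 ± 0.386 FPKM, a log2 difference of -1.18 (SE 0.25, 95% confidence interval -1.75 to -0.61, adjusted p = 0.00771), which made it 2.27-fold lower. Normal mouse 1 had the lowest cerebellar marker sum of the Normal mice, and its striatal marker sum was the highest of all mice. Without Normal mice 2 and 3 the log2 difference was -0.92 and no longer passed the test (adjusted p = 0.0629). With the cerebellar log2 covariate it was -0.37 (adjusted p = 0.531), and with the cerebellar linear covariate -0.78 (adjusted p = 0.077).

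Cacng7 encodes the other type II TARP and is broadly expressed in brain. It was at 24.5, 23.3, 21.9 and 26.6 FPKM in Normal mice 1 to 4 and at 27.1, 26.3, 30.5 and 24.1 FPKM in HFD mice 1 to 4. The diets overlapped and the log2 difference was 0.16 (95% confidence interval -0.02 to 0.34, adjusted p = 0.147). The ratio of Cacng7 to Cacng5 was 4.06 to 10.7 in Normal mice and 12.1 to 23.5 in HFD mice.

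The summed FPKM of the 6 TARPs was 82.8 ± 8.14 in Normal mice and 95.8 ± 7.00 in HFD mice (n = 4 each), with ranges of 75.3 to 90.8 and 87.3 to 103.7 that overlapped. Type I TARPs together had 54.5 ± 7.20 and 67.1 ± 5.11 FPKM, and type II TARPs 28.2 ± 2.07 and 28.7 ± 2.41 FPKM. What differed more was the composition. Cacng3 made up 18.8 ± 3.33% of the TARP sum in Normal mice (15.7 to 21.8%) and 27.7 ± 1.14% in HFD mice (27.0 to 29.4%). Cacng4 made up 7.48 ± 1.33% and 3.97 ± 0.246%, and Cacng5 5.11 ± 1.89% and 1.83 ± 0.519%. These shares contain the differences of the single genes given above, so they are a description without a test. Cacng8 (27.2 ± 1.82% and 26.1 ± 0.786%), Cacng7 (29.1 ± 1.21% and 28.2 ± 1.25%) and Cacng2 (12.3 ± 1.66% and 12.2 ± 0.927%) had overlapping shares. The ratio of Cacng3 to Cacng4 was 1.81 to 3.81 in Normal mice and 6.46 to 8.06 in HFD mice.

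**Figure D2:**
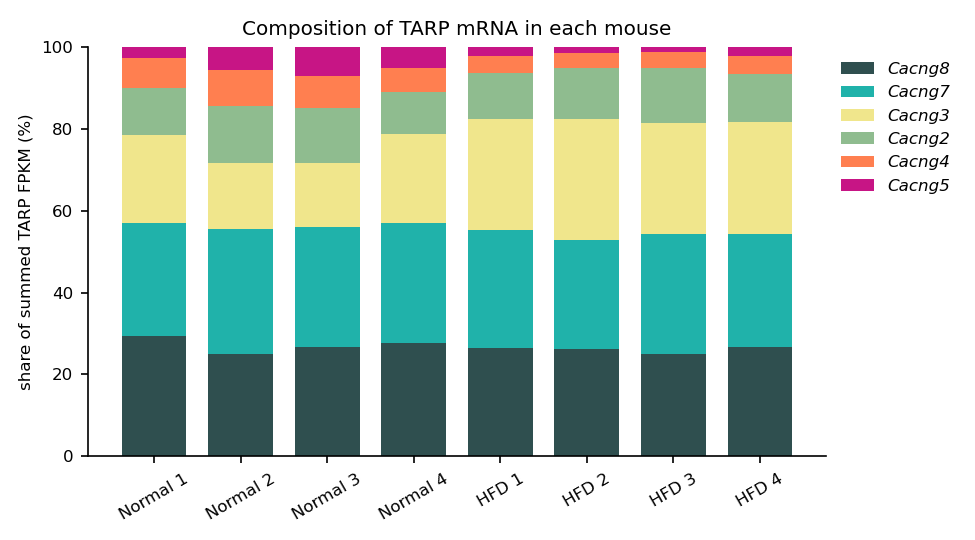
Share of each TARP gene in the summed TARP FPKM (vertical axis, percent) in each of the 8 mice; colours are genes. The Cacng3 share is 15.7 to 21.8% in Normal mice and 27.0 to 29.4% in HFD mice, and the shares of Cacng4 and Cacng5 are smaller in every HFD mouse than in every Normal mouse.

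Neither cornichon passed the test. Cornichons are small membrane proteins that first became known as export receptors of the endoplasmic reticulum, and CNIH2 and CNIH3 slow the closing of AMPA receptors. The 250 bases before the start of Cnih2, the most abundant of the 9 genes, are shown for comparison with the TARP windows (RefSeq, GRCm38.p6 chr19:5098522-5098771, minus strand, capitals as above).
Cnih2: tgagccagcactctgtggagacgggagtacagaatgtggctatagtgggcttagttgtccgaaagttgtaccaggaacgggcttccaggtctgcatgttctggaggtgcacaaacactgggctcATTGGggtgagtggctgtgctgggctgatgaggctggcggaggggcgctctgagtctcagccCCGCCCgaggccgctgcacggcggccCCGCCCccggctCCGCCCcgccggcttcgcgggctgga
This window held 3 matches to the GC box and 1 to CCAAT, with 65.6% G or C and 17 CpG. Cnih2 was at 101.4, 84.8, 76.0 and 99.9 FPKM in Normal mice 1 to 4 and at 99.9, 81.8, 85.5 and 87.0 FPKM in HFD mice 1 to 4. All HFD values lay within the range of the Normal mice, and the log2 difference was -0.03 (95% confidence interval -0.25 to 0.20, adjusted p = 0.86). Cnih3 was at 31.4, 22.4, 24.4 and 31.7 FPKM in Normal mice and at 35.0, 27.6, 29.2 and 37.2 FPKM in HFD mice. Its log2 difference was 0.24 (95% confidence interval -0.06 to 0.54, adjusted p = 0.2). Both cornichons were lowest among Normal mice in mice 2 and 3. Their summed FPKM was 118 ± 16.6 in Normal mice and 121 ± 11.2 in HFD mice.

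Syndig1 was lower in every HFD mouse. The gene lies at GRCm38 chr2:149829211-150004392 (plus strand; ENSMUSG00000074736.10). Its FPKM was 28.1, 28.9, 30.6 and 25.7 in Normal mice 1 to 4 and 17.2, 18.5, 20.8 and 15.3 in HFD mice 1 to 4. The highest HFD mouse was below the lowest Normal mouse, and the spread was of similar size in both diets. The mean fell from 28.3 ± 2.04 to 17.95 ± 2.31 FPKM, a log2 difference of -0.66 (SE 0.09, 95% confidence interval -0.87 to -0.46, adjusted p = 0.00132), or 1.58-fold lower. Without Normal mice 2 and 3 it was -0.59 (adjusted p = 0.0125). With the cerebellar log2 covariate it was -0.58 with a larger SE of 0.16, and did not pass the test (adjusted p = 0.0777). With the cerebellar linear covariate it was -0.58 and passed (adjusted p = 0.0117). With the striatal markers as a covariate it was -0.51 (adjusted p = 0.775). C530025M09Rik is annotated on the opposite strand over 690 bases of Syndig1, and no source used here says if the counting used strand.

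The close relatives Syndig1l, Cnih4 and Cnih1 were measured too, and the first 2 of these were lower in HFD mice. Syndig1l, known as capucin from its enrichment in the caudate and putamen, was at 9.5, 8.1, 7.0 and 4.3 FPKM in Normal mice 1 to 4 and at 1.3, 1.1, 0.8 and 1.1 FPKM in HFD mice 1 to 4. Its log2 difference was -2.60 (SE 0.23, adjusted p = 0.000263), and over the Normal mice it followed the order of the striatal marker sums. Syndig1 did not follow this order among Normal mice, although mouse 4 was the lowest in both. Cnih4, another cornichon, was at 9.9, 11.0, 11.2 and 9.9 FPKM in Normal mice and at 8.3, 8.6, 9.2 and 9.8 FPKM in HFD mice (log2 difference -0.22, adjusted p = 0.0372). Without Normal mice 2 and 3 the Cnih4 difference was -0.14 and did not pass the test (adjusted p = 0.239), and it was also lost when any 1 of Normal mice 2 and 3 and HFD mice 1 to 3 was left out, at -0.24 to -0.19. Cnih1 was at 28.9 to 34.7 FPKM over all mice (log2 difference -0.11, adjusted p = 0.245). Cacng1 and Cacng6 were not analysed here.

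**Figure D3:**
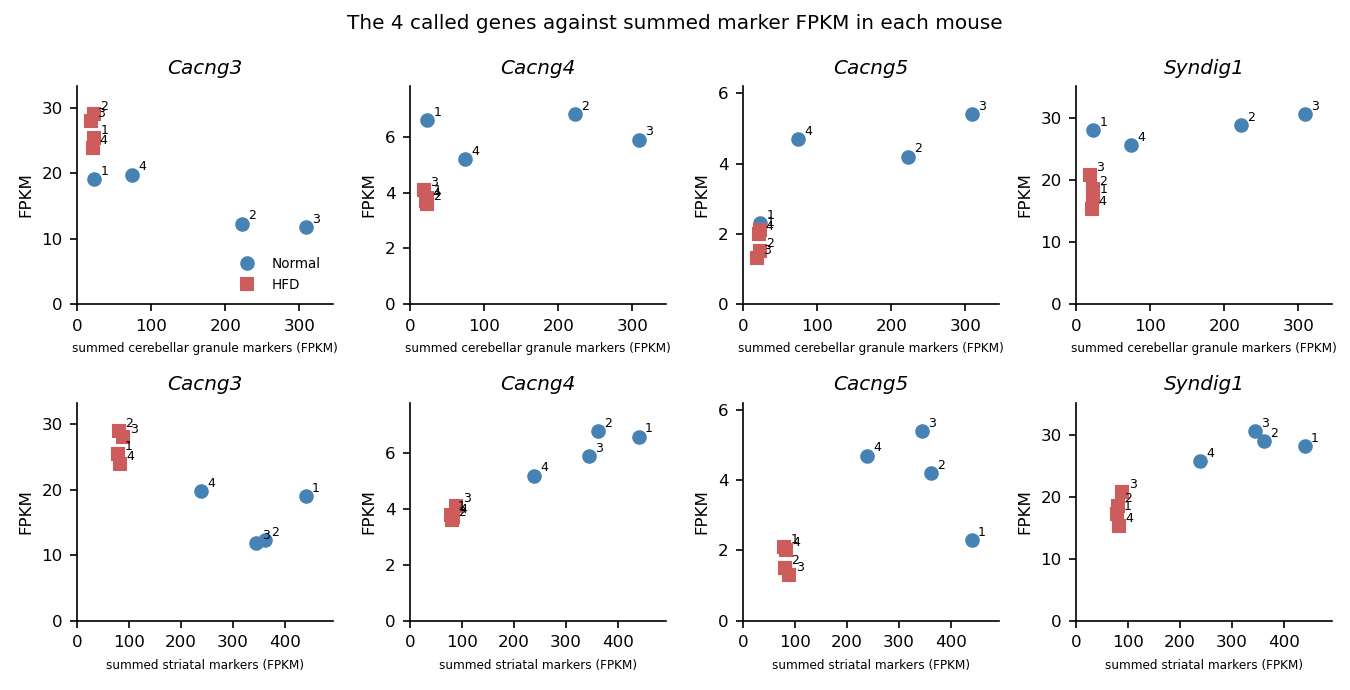
FPKM of Cacng3, Cacng4, Cacng5 and Syndig1 (vertical axes) against the summed FPKM of cerebellar granule cell markers (upper panels) and of striatal markers (lower panels), with 1 point per mouse and replicate numbers beside the points. Cacng3 is lowest in Normal mice 2 and 3, which have the highest granule sums (222.0 and 308.6 FPKM), and no Normal mouse has a striatal sum (238.8 to 440.1 FPKM) near that of the HFD mice (79.4 to 88.9 FPKM).

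The striatal marker sum separated the diets in every mouse, so that diet and striatal RNA cannot be told apart for these genes. With the striatal markers as a covariate, which correlated with diet at r = -0.93, limma called no gene of the 13982. In that fit the log2 difference was 0.69 for Cacng3 (SE 0.48, adjusted p = 0.793). For Cacng5 it was -2.44 (SE 0.55, adjusted p = 0.689), larger in size than the -1.18 without the covariate.

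**Figure D4:**
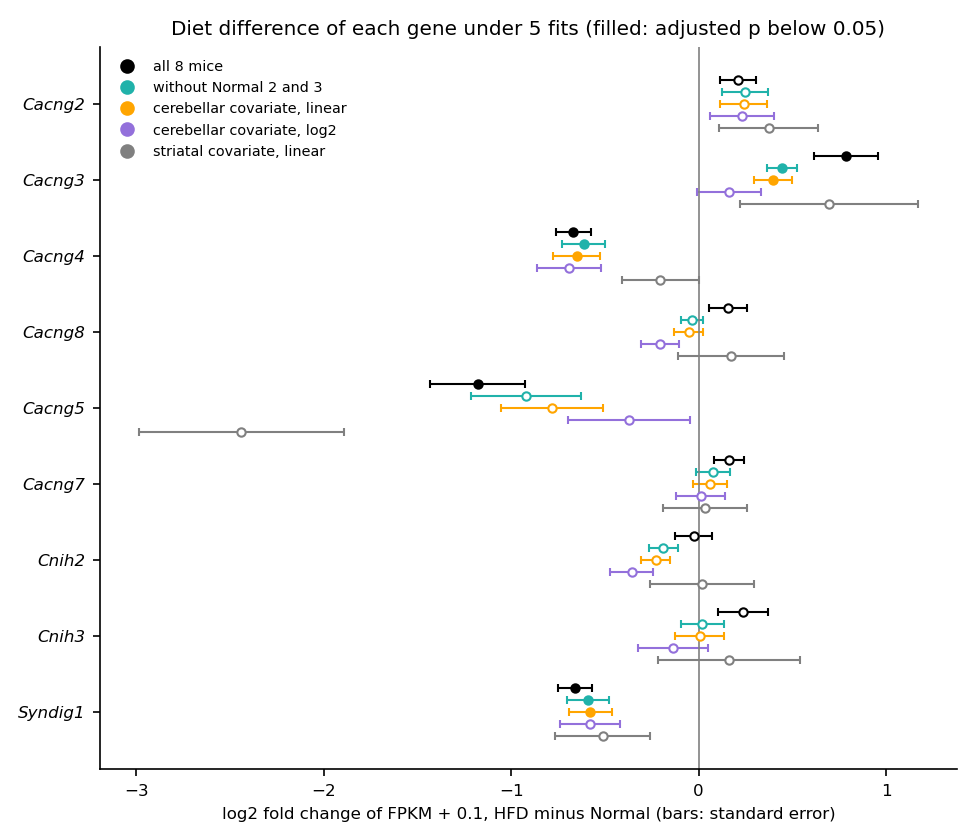
Log2 difference between diets (horizontal axis, HFD minus Normal; bars are the SE) of the 9 genes in all 8 mice, without Normal mice 2 and 3, with cerebellar granule markers as a linear or log2 covariate, and with striatal markers as a linear covariate; filled points have an adjusted p below 0.05. Over these 5 fits Cacng3 ranges from 0.16 to 0.79, Cacng4 from -0.69 to -0.20, Cacng5 from -2.44 to -0.37 and Syndig1 from -0.66 to -0.51, and no point is filled with the log2 cerebellar or the striatal covariate.

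Log2 differences of the 4 pore subunits ran from -0.29 to 0.23, and those of the 9 auxiliary genes from -1.18 to 0.79. The 5 auxiliary genes that did not pass the test had -0.03 to 0.24, a range that their choice by this test makes narrow. Gria1 was at 84.8, 84.9, 92.9 and 93.6 FPKM in Normal mice 1 to 4 and at 82.2, 78.8, 74.2 and 81.2 FPKM in HFD mice 1 to 4. Every HFD mouse was below every Normal mouse, but the log2 difference was -0.17 (SE 0.05, adjusted p = 0.0339). It no longer passed the test when Normal mouse 3, Normal mouse 4, HFD mouse 2 or HFD mouse 3 was left out, at -0.17 to -0.14. It was also lost with quantile normalization (adjusted p = 0.0743), without a variance trend (adjusted p = 0.0595), with each marker covariate and without Normal mice 2 and 3 (adjusted p = 0.087). Gria2, the subunit that makes the receptor impermeable to calcium, was at 154.8 to 194.8 FPKM in Normal mice and 160.3 to 179.8 FPKM in HFD mice (log2 difference -0.01, adjusted p = 0.914), and its sign turned with quantile normalization. Gria3 was at 52.7 to 69.6 FPKM and 68.7 to 73.7 FPKM (log2 difference 0.23, adjusted p = 0.0717). It passed the test without Normal mouse 1 or 4 and with quantile normalization (adjusted p = 0.0414). Gria4 was at 44.5 to 61.8 FPKM and 41.7 to 45.5 FPKM (log2 difference -0.29, adjusted p = 0.0546). It too passed without Normal mouse 1 or 4, and also with rescaling by median ratios (adjusted p = 0.0496). In Normal mice 2 and 3 Gria2 and Gria3 were lower than in Normal mice 1 and 4, and Gria4 was higher. The sum of the 4 subunits was 378 ± 21.5 FPKM in Normal mice and 365 ± 12.6 FPKM in HFD mice. Per 100 FPKM of pore subunits the TARP sum was 20.8 to 22.8 FPKM in Normal mice and 23.2 to 29.8 FPKM in HFD mice.

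Other genes of the receptor were taken from lists chosen by function. Over the pore subunits, relatives, other auxiliary proteins and anchoring or trafficking proteins, 22 of 50 genes passed the test (44.0%, against 33.1% of all genes), 12 higher and 10 lower. By list these were 1 lower of 4 pore subunits, 2 lower of 3 relatives, 9 higher and 4 lower of 22 other auxiliary proteins, and 3 higher and 3 lower of 21 anchoring and trafficking proteins. Among the last 2 lists, 6 genes passed the test and changed by more than 1.5-fold, of which 5 are described here. Shisa7, a CKAMP family protein that has also been found with GABA receptors, was at 11.9, 8.8, 8.2 and 10.7 FPKM in Normal mice and at 16.9, 16.9, 16.1 and 16.3 FPKM in HFD mice (log2 difference 0.75, adjusted p = 0.00141). Vwc2l, a secreted protein with von Willebrand factor C domains, was at 3.3, 3.6, 3.8 and 3.3 FPKM and at 7.3, 8.0, 5.6 and 7.3 FPKM (0.98, adjusted p = 0.000744). Neither gene overlapped between diets, with every HFD mouse higher. In the other direction, the CKAMP family member Shisa8 was at 1.3, 2.0, 2.5 and 2.6 FPKM in Normal mice and at 0.9, 0.6, 1.0 and 0.6 FPKM in HFD mice (log2 difference -1.31, adjusted p = 0.00439). Olfm3, a secreted olfactomedin, was at 15.2, 23.2, 23.7 and 16.4 FPKM and at 10.6, 9.6, 10.3 and 11.0 FPKM (-0.89, adjusted p = 0.00222), with its highest values in Normal mice 2 and 3. Arc, an immediate early gene whose protein promotes the uptake of AMPA receptors from the synapse, was at 156.9, 123.4, 93.4 and 132.5 FPKM and at 88.9, 71.1, 79.1 and 54.3 FPKM (-0.78, adjusted p = 0.00897). All 5 still passed the test without Normal mice 2 and 3. With the cerebellar log2 covariate, Shisa7 (adjusted p = 0.0659), Shisa8 (adjusted p = 0.255) and Olfm3 (adjusted p = 0.135) did not.

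Of the 6 TARP genes, 4 lie in pairs on the genome, while Cacng2 and Cacng3 lie apart from the others. Cacng4 and Cacng5 are neighbours on the minus strand of chromosome 11, 80.0 kb apart, and both were lower in HFD mice. They did not rise and fall together within diets, with a Pearson r of -0.52 over the 8 mice after the mean of each diet was removed. Helz, 38.5 kb beyond Cacng4, was higher by 0.46 on the log2 scale (adjusted p = 0.00149). Prkca, 18.3 kb beyond Cacng5, had the sign of the pair at -0.17 but did not pass the test (adjusted p = 0.359). Cacng7 and Cacng8 lie 22.5 kb apart on chromosome 7 and neither passed the test. Cacng3 lies 36.1 kb from Prkcb, which differed by 0.11 (adjusted p = 0.402). Of the 18 nearest measured neighbours of the 9 genes, 8 passed the test (44.4%), 4 higher and 4 lower, beside 33.1% of all genes. These 18 include the auxiliary genes Cacng4, Cacng5, Cacng7 and Cacng8, and Cacng4 and Cacng5 are among the 4 lower, so the count is not separate from that of the 9 genes. Overlapping genes are annotated at all 9 genes except Cacng5, most of them on the opposite strand, and reads of these cannot be told apart if strand was not used. At Cacng7 only Gm44256 is annotated, on the same strand. Gm23450 at Cacng8 and 2900069G24Rik at Cnih3 are also on the same strand, and counting by strand would not separate these.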

How the data were processed

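RNA of 8 cortexes (4 Normal and 4 HFD mice, 1 library each) was used. The deposited values are FPKM per gene, made by the authors from reads checked with FastQC, trimmed with Trimmomatic, aligned to mm10 with STAR and normalized by Cuffnorm on GENCODE M17 (GRCm38.p6). No source used here gives tool versions. A second pipeline of the authors, with Salmon and edgeR, was not used. FPKM sums per mouse were 562431 to 639142, and the read depth is unknown.

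Diets were compared with limma 3.58.1 in R 4.3.3 on log2(FPKM + 0.1), with a variance trend, two-sided, and Benjamini-Hochberg adjustment over 13982 genes (mean FPKM of at least 1 and no 0; 14 genes were left out). The log2 scale with this added constant understates changes of low genes. The script was tested on simulated data. Counts, sums and figures were made with Python 3.11.15, pandas 2.3.3, numpy 2.4.6 and matplotlib 3.10.9. GENCODE M21 (GRCm38) gave positions for 13977 of the 13996 genes, so gene models may differ from M17, and promoter sequences came from RefSeq (GRCm38.p6).

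The auxiliary genes, the AMPA receptor lists and the marker lists were chosen with earlier results of these data known. The genes named are the 9 auxiliary genes, the pore subunits and relatives, the genes of the other 2 receptor lists with an adjusted p below 0.05 and a change above 1.5-fold, the nearest measured neighbours, and the 3 genes most correlated within diets with each auxiliary gene that passed the test. Of the neighbours, some of those at the TARP genes on chromosomes 7 and 11 are named. A gene that this rule takes in is not reported here, but is counted in its list. Alternatives were another added constant, other filters, rescaling, quantile normalization, no variance trend, a replicate block, marker covariates (the mean log2(FPKM + 0.1) of the cerebellar granule markers, and the mean relative FPKM of these or of the striatal markers, called linear) and each mouse left out in turn.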

Additional observations from a re-analysis of the deposited data

Results flagged for a closer look

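With 4 mice per diet, 66 groups were examined for a mouse far from the others by Dixon's 95% critical value for the gap to its nearest neighbour over the range, and 3 such values were found. Chance alone gives about 1 in 20 groups. Cnih1 was 34.7 FPKM in HFD mouse 3 and 28.9 to 29.4 FPKM in the other HFD mice, and without this mouse its log2 difference was -0.17 and passed the test (limma, adjusted p = 0.0402). The summed oligodendrocyte markers were 2048.4 FPKM in HFD mouse 3 and 1484.8 to 1540.7 FPKM in the other HFD mice. The summed choroid plexus markers were 940.6 FPKM in HFD mouse 4 and 21.0 to 76.6 FPKM in the other HFD mice. None of the 9 auxiliary genes had such a mouse in either diet.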

How the results depend on the processing

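The 4 auxiliary genes that passed the test did so with each mouse left out in turn (4 to 4 genes called), with log2 differences of 0.66 to 0.91 for Cacng3, -0.74 to -0.62 for Cacng4, -1.43 to -1.03 for Cacng5 and -0.73 to -0.59 for Syndig1. Leaving out 1 mouse gave 16 to 26 calls among the 50 other receptor genes (9 to 16 higher, 7 to 11 lower). The share called over all genes was 23.6% to 33.0% in these fits. The signs of Cnih2 (-0.11 to 0.032, with 0.032 without Normal 1, 0.025 without Normal 4, 0.011 without HFD 2) and Gria2 (-0.066 to 0.045, with 0.045 without Normal 1, 0.029 without Normal 4, 0.018 without HFD 3) turned. With a mean FPKM of at least 5, Cacng4 and Cacng5 were not tested and 2 auxiliary genes were called, 1 of them lower, beside 38.1% of all genes. Quantile normalization turned Gria2 to 0.022. With the mean log2 level of the cerebellar granule markers as a covariate, 0 auxiliary genes were called (0 higher, 0 lower) and 4 of the other receptor genes (2 higher, 2 lower) by limma, beside 3.95% of all genes, and 3 and 15 had an unadjusted p below 0.05. The differences were 0.16 for Cacng3 (adjusted p = 0.616), -0.69 for Cacng4 (0.0576), -0.37 for Cacng5 (0.531) and -0.58 for Syndig1 (0.0777), and Cacng8 (-0.21), Cnih3 (-0.14), Gria3 (-0.11), Gria4 (0.13) and Cnih1 (0.0048) turned in sign. Further alternatives were added after the data were seen. With the mean relative FPKM of these markers as a linear covariate, 3 auxiliary genes were called (1 higher, 2 lower) and 13 others (6 higher, 7 lower), beside 18.0% of all genes: Cacng5 was lost (-0.78, adjusted p = 0.077) and Cacng3 (0.40, 0.0297), Cacng4 (-0.65, 0.0113) and Syndig1 (-0.58, 0.0117) were kept, and Cacng8 turned to -0.053. Without Normal 2 and Normal 3, 3 auxiliary genes were called (1 higher, 2 lower) and 15 others (7 higher, 8 lower), beside 19.6% of all genes, Cacng5 was lost (-0.92, adjusted p = 0.0629) and Cacng8 turned to -0.034. With that of the striatal markers, no gene of the 13982 was called by limma (892 at an unadjusted p below 0.05), so 0 auxiliary genes and 0 others in either direction (1 and 8 at an unadjusted p below 0.05). The values were 0.69 for Cacng3 (adjusted p = 0.793), -0.20 for Cacng4 (0.848), -2.44 for Cacng5 (0.689) and -0.51 for Syndig1 (0.775), and Cnih2 (0.018) and Gria2 (0.025) turned. The labels give both diets the numbers 1 to 4, but no source used here says that these pair the mice. Over all genes, deviations of mice with the same number correlated at -0.04, -0.03, -0.11 and -0.07. No Normal mouse correlated best with the HFD mouse of its own number. Such correlations over all genes cannot exclude a pairing that touched only some of them. With the replicate block, Cnih3 passed (0.24, adjusted p = 0.0211), and Gria1 (-0.17, adjusted p = 0.0809) and Cnih4 (-0.22, adjusted p = 0.0691) were lost. In that fit 2 auxiliary genes were higher and 3 lower, and 13 others were called (7 higher, 6 lower), with 3390 calls over all genes (24.2%). The other settings tried changed none of these counts by more than 1.5 times. The cause of these changes was not tested. FPKM without read counts limits what can be said of the low genes Cacng4, Cacng5 and Shisa8.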

Other observations

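After the mean of each diet was removed, Cacng3 varied over the 8 mice most like Dclre1a (Pearson r 0.996), Olfm1 (0.995) and Basp1 (0.995), a growth cone protein. Cacng4 was most like Mrpl22 (0.979), Ralgds (0.972) and Cables1 (0.967). Cacng5 was most like Lrrcc1 (0.985), Trim24 (0.980) and Mccc2 (0.978). Syndig1 was most like Efr3b (0.980), Phf1 (0.978) and Dmkn (0.975). These are the highest of 13982 genes in 8 mice that share region markers, so they are given as a description.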
